A study of Capra hircus with 24 samples.

Results

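The genes described here encode the proteins that carry glucose into the cell and lactate out of it, the enzymes of glycolysis, the switches that send pyruvate to lactate or to the mitochondrion, and the sensors and targets of the response to low oxygen. They were chosen by name: 39 genes were listed, and a gene was kept where its level was 1 or more in at least 3 libraries. Of the 39, 36 were found by symbol and LDHA by its synonym LDH-A, which makes 37 of the 20326 genes in the deposited tables. PFKL and P4HA2 were not analysed here. All 37 reached that level, as did 13049 genes in all. PDK4 reached a level of 1 in 22 of the 24 libraries, CA9 in 23 and the other 35 in every library.

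The libraries are RNA-seq of dermal papilla cells, the mesenchymal cells at the root of a hair follicle, from cashmere goats (Capra hircus). Cells came from secondary follicles, which grow the fine cashmere, or from primary follicles, the source of the coarser guard hairs. Goats of both sexes were sampled in October, labelled anagen (hair growth under way), and in June, labelled early anagen (its beginning). This gives 8 groups with 3 libraries in each: secondary October males, secondary June males, primary October males, primary June males, and the same 4 combinations in females. The labels name no treatment and no allele for any group, and give neither ages nor a culture step. Because every October library is anagen and every June library is early anagen, hair cycle stage, season and collection cannot be told apart. The labels number the libraries of a group as biological replicates without saying that they came from separate animals or cultures, so p-values rest on the spread among libraries, some of which may be technical.

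Glycolysis splits glucose into pyruvate in the cytosol, and most cells can turn that pyruvate into lactate or burn it in mitochondria. When oxygen is scarce, prolyl hydroxylases of the EGLN family stop marking the alpha subunits of hypoxia-inducible factor for destruction, and the factor raises genes for glucose uptake, glycolysis, blood vessel growth and acid balance. Dermal papilla cells are known as a source of the vessel growth factor VEGFA in the hair follicle, and lactate handling has been studied in mouse follicles. The roles given below are those known from human and mouse.

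The levels are the authors' normalised values as deposited, tested as log2(level + 1), a scale on which weak genes appear to change less than they do. Library sums range from 959766 to 1045876, and the number of reads is unknown. The correlation across genes was 0.993 to 0.997 within a group and 0.954 to 0.992 between groups. The mesenchymal genes VIM and COL1A1 were high in every group (group means of at least 5995 and 3532), whereas the papilla markers were uneven: the mean level of SOX2 ran from 0.257 in secondary June females to 15.9 in primary October males, ALPL reached 1 in only 3 libraries and HHIP in none. The leukocyte gene PTPRC was never above 0.02, but CD68 and CD14 of the same immune list reached 1 in all 24 libraries. That list summed to 54.4 in primary June females, where LAPTM5 had a mean of 30.2, and to 11.4 in secondary October males, the lowest group. Keratinocyte and hair matrix genes summed to 316 ± 14.4 in secondary October females (mean and SD, n = 3), led by KRT5, against 4.89 to 74.3 in the other 7 groups, and mitochondrial transcripts were 11.7% of the total there against 9.07 to 10.6%. The 5 proliferation markers (MKI67, TOP2A, CDC20, CCNB1, BIRC5) summed to 209 and 215 in secondary June males and females, against 44.0 to 106 in the other groups. In bulk RNA, fewer cells of a type and less RNA per cell cannot be told apart, and the part that these markers play in the results below was not tested.

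Glycolytic enzymes took between 1.04 and 1.72% of the summed deposited levels, as group means. The 16 enzymes from hexokinase to lactate dehydrogenase made up 1.5 ± 0.0357% of the library total in secondary October males and 1.72 ± 0.0386% in secondary June males (mean and SD, n = 3). Primary males had 1.43 ± 0.0233% in October and 1.3 ± 0.0221% in June. Secondary females had 1.04 ± 0.0443% in October and 1.43 ± 0.0303% in June, and primary females 1.15 ± 0.0512% in October and 1.38 ± 0.0328% in June. The lowest share therefore stood in the secondary October females and the highest in the secondary June males. The secondary October females also had the highest sum of keratinocyte genes (316, beside a mean library total of 992217). A link between that sum and the share was not tested. In males the October share was below the June share in secondary cells and above it in primary cells, and in females it was below in both follicle types; these shares are given as a description.

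**Figure D1:**
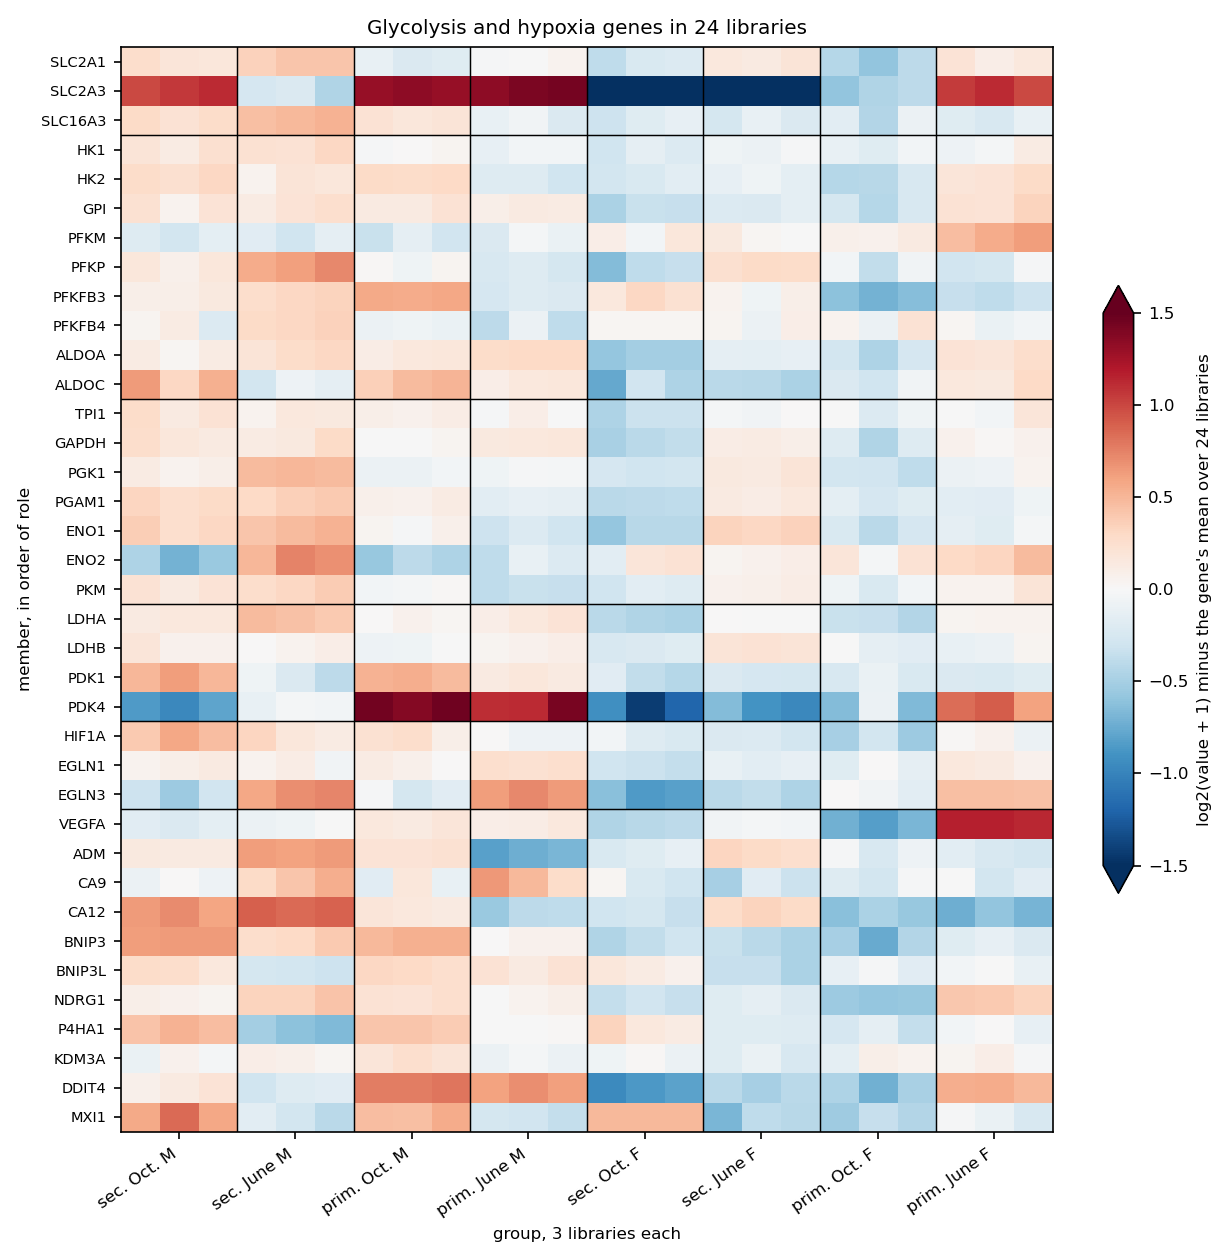
Heat map of the 37 genes (rows, ordered by role) in the 24 libraries (columns, 3 per group, males left of females and within each sex secondary October, secondary June, primary October, primary June). Colour is log2(level + 1) minus the gene's mean over all libraries, capped at 1.5 either way; the 3 libraries of a group look alike, and SLC2A3 and PDK4 show the widest range (12.7-fold and 12.0-fold between the highest and lowest group means).

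The first comparison asks how cells of cashmere-growing follicles differ from those of guard hair follicles. In October, when hair growth is under way, secondary cells of both sexes had more RNA of CA12, a carbonic anhydrase of the cell surface, of the glucose transporter SLC2A1 and of HIF1A, and less of PDK4, a mitochondrial kinase that inhibits pyruvate dehydrogenase, and of DDIT4, an inhibitor of mTORC1. In males 19 of the 37 genes were called changed (limma, Benjamini-Hochberg adjusted p under 0.05), 11 higher and 8 lower in secondary cells, where 18.5% of all tested genes were called (10.9% higher and 7.63% lower). In females 22 were called, 10 higher and 12 lower, where 35.5% of all tested genes were called (18.3% higher and 17.2% lower). The median log2 difference was 0.05 in males and -0.07 in females, beside 0.01 and 0.00 over all tested genes. In lower glycolysis, 5 of the 7 genes were called higher and 0 lower in males, and 4 were called lower and 0 higher in females. Of those 5 male calls, 3 were lost on libraries rescaled to a common total, namely GAPDH (adjusted p = 0.149), PGK1 (adjusted p = 0.168) and PKM (adjusted p = 0.0632). The hypoxia targets had 1 higher and 4 lower of 11 in males and 7 higher and 1 lower in females.

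Along with CA12, SLC2A1 and HIF1A, 4 genes were called alike in both sexes in October, all lower in secondary cells (SLC2A3, PDK4, EGLN3 and DDIT4), and 6 were called in opposite directions (PFKFB3, GAPDH, PGAM1, ENO1, VEGFA and NDRG1). Such counts over both sexes, here and below, were not made for all tested genes. They are given as a description, with no background share beside them. Of the October calls, 9 of 19 in males and 17 of 22 in females held under each of 31 alternative settings. On rescaled libraries 26.9% of all genes called in males were higher, against 58.7% of those called as deposited. The split of the 37 genes moved to 4 higher and 11 lower. The male calls of HIF1A (adjusted p = 0.0635), HK1 (adjusted p = 0.248), LDHA (adjusted p = 0.672) and LDHB (adjusted p = 0.239) were lost there as well. With median-of-ratios factors, 60.2% of all genes called in males were higher, and the 37 genes had 11 higher and 7 lower. The ENO1 call in females was lost without secondary October female 1 or primary October female 1 (adjusted p 0.0608 to 0.089). In the fit of the compared groups alone, 14 of the 37 genes were called in October females, beside 21.4% of all tested genes in that fit. The keratinocyte sum was 39.9 in secondary and 74.3 in primary October males, and 316 in secondary and 40.5 in primary October females.

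In June, secondary cells of both sexes had more RNA of ENO1 and PGAM1, which act late in glycolysis, of PFKP, the platelet-type phosphofructokinase, of ADM, the vasodilator peptide adrenomedullin, and of CA12. They had less of the glucose transporter SLC2A3, of PDK4 and of DDIT4. In males 28 of the 37 genes passed, of which 19 were higher and 9 lower, where 59.6% of all tested genes were called (30.7% higher and 28.9% lower). In females 26 were called, 8 higher and 18 lower, where 49.3% of all tested genes were called (25.0% higher and 24.3% lower). The median log2 difference was 0.14 in males and -0.18 in females, beside 0.01 and 0.00 over all tested genes. Lower glycolysis had 5 genes higher and 0 lower of 7 in males and 3 higher and 1 lower in females. Hypoxia targets had 5 higher and 4 lower of 11 in males and 2 higher and 7 lower in females.

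In June 7 genes were called higher in secondary cells in both sexes (PFKP, PFKFB3, PGK1, PGAM1, ENO1, ADM and CA12). Another 7 were called lower in both (SLC2A3, ALDOC, PDK4, EGLN1, VEGFA, BNIP3L and DDIT4), and 6 were called in opposite directions (HK2, ENO2, HIF1A, BNIP3, NDRG1 and KDM3A). Of the June calls, 25 of 28 in males and 25 of 26 in females held under each of the 31 settings. Rescaling moved the male split of all called genes to 64.2% higher, against 51.5% as deposited. It moved that of the 37 genes to 22 higher and 7 lower, with the male calls of VEGFA (adjusted p = 0.0547) and EGLN1 (adjusted p = 0.0951) lost. With median-of-ratios factors the male split was 49.6% higher over all called genes, and 18 higher and 9 lower for the 37 genes. The KDM3A call in males (0.14 (SE 0.0588, adjusted p = 0.046)) was lost without secondary June female 1, secondary June male 1, 2 or 3, primary June female 1, primary June male 1 or 3, secondary October male 3 or primary October male 1, 2 or 3 (adjusted p 0.051 to 0.116) and with median-of-ratios factors (adjusted p = 0.0643), and the ENO2 call in females without primary June female 3 (adjusted p = 0.0672). Proliferation markers summed to 209 in secondary and 44.0 in primary June males, and to 215 in secondary and 58.6 in primary June females.

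The second comparison asks what differs between October, labelled anagen, and June, labelled early anagen. In secondary cells, 4 of the 7 genes of lower glycolysis were called lower in October than in June in males and 6 in females, with 0 higher in either sex, while MXI1, a repressor that opposes MYC, P4HA1, a subunit of the collagen prolyl hydroxylase, and BNIP3L, a receptor for mitophagy, were higher. In males 28 of the 37 genes were called, 10 higher and 18 lower in October, where 56.5% of all tested genes were called (25.3% higher and 31.2% lower). In females 26 were called, 4 higher and 22 lower, where 51.3% of all tested genes were called (24.2% higher and 27.1% lower). The median log2 difference was -0.09 in males and -0.20 in females, beside -0.01 over all tested genes in both. Lower in both sexes were 13 genes (SLC2A1, PFKP, ALDOA, PGK1, ENO1, PKM, LDHA, PDK4, EGLN3, VEGFA, ADM, CA12 and NDRG1), and SLC2A3, PFKFB3 and DDIT4 were called in opposite directions.

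Of these calls, 24 of 28 in males and 24 of 26 in females held under each of the 31 settings. Without secondary June male 3 or secondary October male 2 (adjusted p 0.0724 to 0.0738), the male call of ENO1 was lost, without secondary June male 3 or secondary October male 2 (adjusted p 0.108 to 0.123) or with median-of-ratios factors (adjusted p = 0.0758) that of PKM, and without secondary June male 3 (adjusted p = 0.053) that of VEGFA. With libraries rescaled to a common total, the male split of all called genes moved to 31.4% higher, against 44.8% as deposited. That of the 37 genes moved to 9 higher and 21 lower. Median-of-ratios factors gave 48.7% higher over all genes called in males, and 10 higher and 17 lower for the 37 genes. The proliferation markers summed to 102 in October and 209 in June in secondary males, and to 76.7 in October and 215 in June in secondary females. Keratinocyte genes summed to 39.9 in October and 8.04 in June in these males, and to 316 in October and 4.89 in June in these females.

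In primary cells the sexes went different ways. October males had 18 of the 37 genes higher and 9 lower than June males, 27 in all, where 55.5% of all tested genes were called (26.0% higher and 29.5% lower). October females had 0 higher and 24 lower than June females, where 48.2% of all tested genes were called (22.7% higher and 25.6% lower). The median log2 difference was 0.18 in males and -0.27 in females, beside 0.00 over all tested genes in both. Of the hypoxia targets, 8 of 11 were called higher and 1 lower in males, against 0 higher and 6 lower in females. Of the 9 genes of upper glycolysis, 4 were higher and 1 lower in males, and 0 were higher and 6 lower in females.

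No gene was called higher in October in both sexes in primary cells, 7 were called lower in both (SLC2A1, ALDOA, GAPDH, ENO2, LDHA, EGLN1 and EGLN3), and 11 were called in opposite directions (HK2, PFKFB3, ALDOC, ENO1, PKM, HIF1A, BNIP3, NDRG1, P4HA1, DDIT4 and MXI1). How many of all tested genes were called in opposite directions was not counted. In males 18 of the 27 calls, and in females 21 of the 24, held under each of the 31 settings. On rescaled libraries the male split of all called genes moved to 60.8% higher, against 46.9% as deposited. That of the 37 genes moved to 24 higher and 2 lower. The male calls of SLC2A1 (adjusted p = 0.147), ALDOA (adjusted p = 0.246), GAPDH (adjusted p = 0.28), ENO2 (adjusted p = 0.147), LDHA (adjusted p = 0.509) and EGLN1 (adjusted p = 0.208) were lost there, which leaves EGLN3 as the 1 gene called lower in both sexes on both scales. Median-of-ratios factors gave 48.5% higher over all genes called in males, and 18 higher and 8 lower for the 37 genes. The DDIT4 call in males (0.14 (SE 0.0581, adjusted p = 0.0434)) was lost without primary June male 1 or 3 or primary October male 1, 2 or 3 (adjusted p 0.0706 to 0.123) and with no filter (adjusted p = 0.0586). In females, the ENO1 call was lost without primary June female 3 or primary October female 2 (adjusted p 0.0626 to 0.0689) and the P4HA1 call without primary October female 3 (adjusted p = 0.0516). Immune marker genes summed to 20.9 in October and 54.4 in June in primary females, with PTPRC near 0 in both, and proliferation markers to 106 and 58.6.

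**Figure D2:**
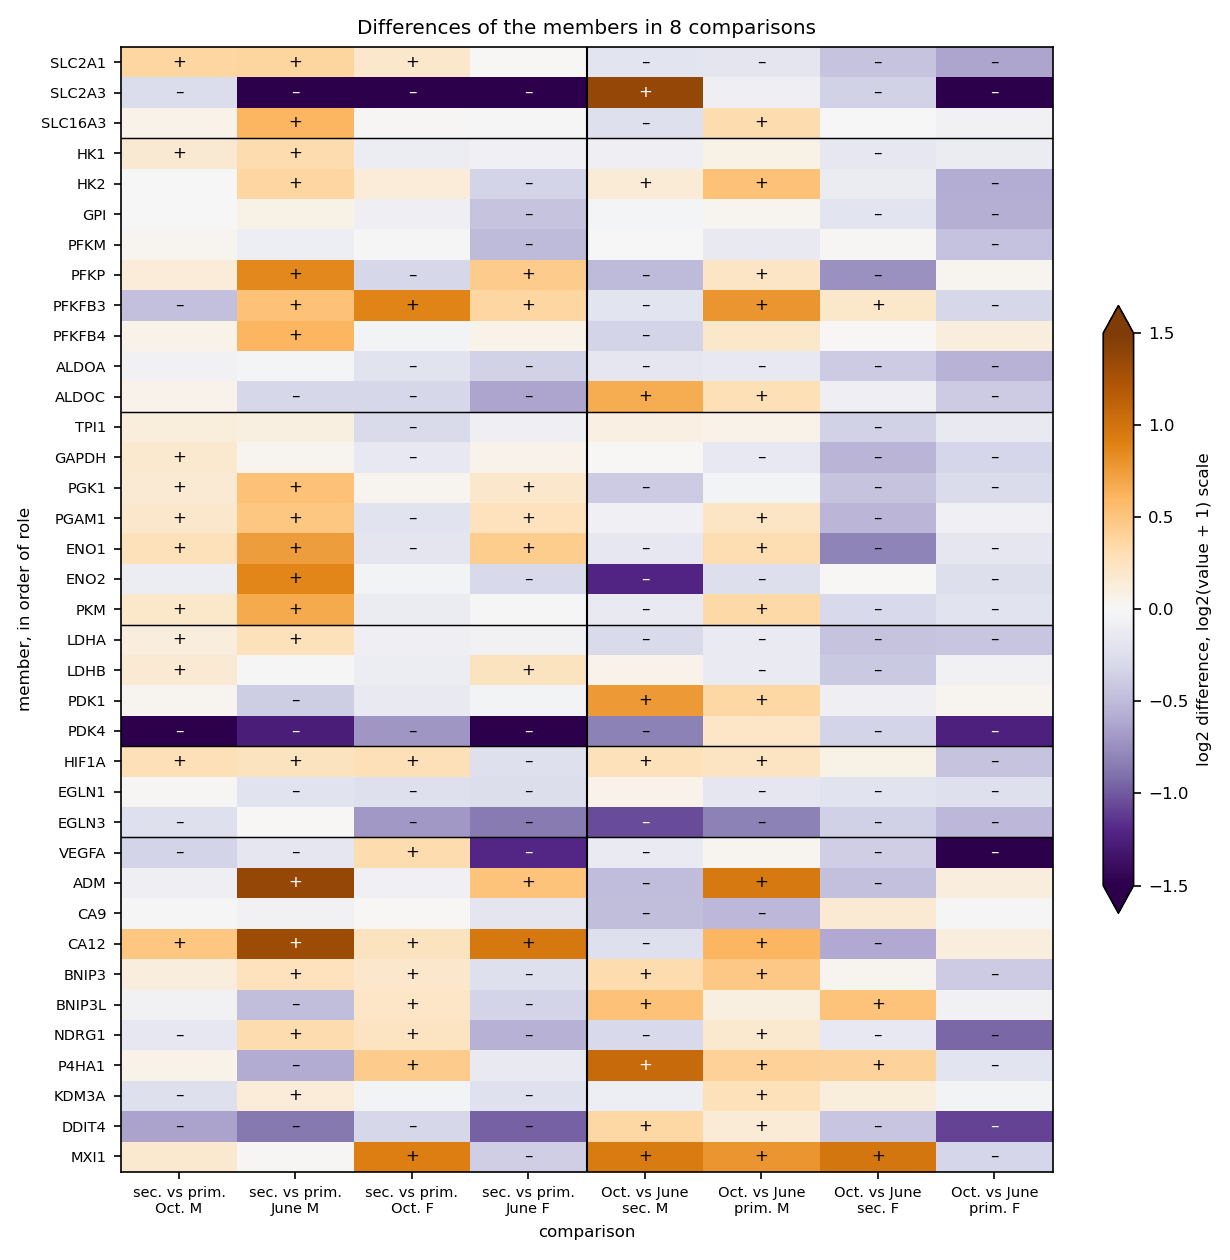
Heat map of the log2 difference of each of the 37 genes (rows, by role) in the 8 comparisons (columns), secondary minus primary or October minus June; plus and minus signs mark genes called higher or lower by limma. Of the 296 values 200 were called, and the column of primary females, October against June, holds 24 minus signs and 0 plus signs. Of all tested genes, 18.5 to 59.6% were called per comparison, and 48.2% in that of primary females.

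SLC2A3 (gene ID 100860892), a glucose transporter with high affinity for glucose that is best known from neurons, varied most among the transporters. In October males its level was 131, 137 and 143 in the 3 secondary libraries, against 163, 168 and 163 in primary cells. In October females it was 12, 17 and 12.2 in secondary cells, against 43.1, 47.7 and 49.4 in primary cells. Secondary cells stood below primary cells in both sexes without overlap, by -0.26 (SE 0.09, adjusted p = 0.0451) in males and -1.71 (SE 0.09, adjusted p = 4.32e-13) in females, and the sexes were 1.45 apart (SE 0.127, adjusted p = 6.25e-09). The male October call was lost without secondary June female 2, primary June female 1, primary June male 1, 2 or 3, secondary October male 1, 2 or 3 or primary October male 1, 2 or 3 (adjusted p 0.0515 to 0.156). It was also lost with a pseudocount of 0.1 (adjusted p = 0.0535), with no filter (adjusted p = 0.0741) and with median-of-ratios factors (adjusted p = 0.0504).

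The SLC2A3 level in June males was 54.6, 56.3 and 47.5 in secondary cells, against 167, 176 and 178 in primary cells. June females had 16.5, 17.3 and 18.8 in secondary cells, against 136, 143 and 131 in primary cells. No secondary library reached any primary one of its sex, and the log2 difference was -1.70 (SE 0.09, adjusted p = 1.74e-13) in males and -2.89 (SE 0.09, adjusted p = 3.67e-17) in females. Between months, secondary males had more in October (1.36 (SE 0.09, adjusted p = 1.16e-11)), whereas primary females had less (-1.53 (SE 0.09, adjusted p = 2.99e-12)). In primary males the month difference was -0.08 with a 95% interval of -0.26 to 0.11. The male and female differences between October and June in secondary cells stood 1.71 apart (SE 0.127, adjusted p = 2.78e-10).

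The widely expressed glucose transporter SLC2A1 moved far less. Its group means lay between 85.9 ± 6.13 in primary October females and 156 ± 4.52 in secondary June males (SD, n = 3). In October males it was 143, 135 and 134 in secondary cells, against 110.0, 102 and 105 in primary cells, with no overlap and a difference of 0.37 (SE 0.0531, adjusted p = 1.95e-05). SLC2A3 made up 25.2 to 49.97% of the summed level of these 2 transporters in secondary males (group means of June and October), 59.2 to 60.8% in primary males, 11.6 to 12.2% in secondary females and 35.3 to 50.8% in primary females. The deposited scale is not stated to be per length, so such a share is compared between groups only. SLC16A3, which exports lactate, was called in 3 of the 8 comparisons and differed most between secondary and primary June males (0.61 (SE 0.0689, adjusted p = 8.62e-08)).

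In upper glycolysis, PFKFB3 (gene ID 102170613) makes the activator of phosphofructokinase and is a known target of low oxygen. Its level in October males was 48.2, 48 and 50.2 in secondary cells, against 67.3, 67.2 and 68 in primary cells. In October females it was 50.4, 56.1 and 53 in secondary cells, against 29.1, 27.2 and 28.6 in primary cells. Secondary cells were thus below primary cells in every male library and above them in every female library, with differences of -0.46 (SE 0.046, adjusted p = 1.12e-07) in males and 0.88 (SE 0.046, adjusted p = 3.63e-13) in females. The male minus female value of the October contrast was -1.34 (SE 0.0651, adjusted p = 2.66e-13).

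PFKFB3 was also one of 4 genes called in all 8 comparisons, with ENO1, NDRG1 and DDIT4. In a single comparison 18.5 to 59.6% of all tested genes were called, and how many were called in all 8 was not counted. The number of comparisons in which a gene was called, here and below, is therefore a description only. In primary males it rose to 67.5 ± 0.402 in October, against 38.7 ± 0.895 in June (0.79 (SE 0.046, adjusted p = 1.54e-12)). In primary females it was 28.3 ± 0.993 in October and 35.3 ± 0.872 in June (-0.31 (SE 0.046, adjusted p = 8.45e-06)). Its relative PFKFB4 was weakly expressed, with group means from 3.73 to 6.17, and was called in 2 comparisons.

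PFKP, one of the phosphofructokinases that commit sugar to glycolysis, was highest in secondary June cells. It stood at 121, 127 and 136 in secondary June males, against 69.1, 71.6 and 68.2 in primary June males (0.87 (SE 0.0823, adjusted p = 5.33e-09)), and at 96.6, 100.4 and 99.3 against 67.2, 67.9 and 81.2 in the secondary and primary June females (0.45 (SE 0.0823, adjusted p = 8.5e-05)). In October secondary females it fell to 52.1, 62.5 and 64.1, below all 3 June libraries (-0.73 (SE 0.0823, adjusted p = 1.39e-07)). The muscle-type PFKM contributed 7.66% of the summed PFKM and PFKP level in secondary June males and 20.5% in primary June females.

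The hexokinases HK1 and HK2, which trap glucose in the cell, the isomerase GPI and the aldolases ALDOA and ALDOC had differences between 0.66 and -0.63, both of them those of ALDOC. ALDOA was called lower in 6 comparisons and higher in 0, and GPI lower in 3 and higher in 0. HK2 rose to 40.8 ± 0.208 in primary October males, against 28.2 ± 1.26 in June (0.52 (SE 0.0546, adjusted p = 3.95e-08)), and fell to 25.8 ± 1.95 in primary October females, against 39.1 ± 1.7 in June (-0.58 (SE 0.0546, adjusted p = 8.74e-09)). The sex difference of that month contrast was 1.10 (SE 0.0772, adjusted p = 8.88e-11).

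In lower glycolysis ENO1 (gene ID 102175881), the main enolase of most tissues, separated the follicle types in June. It also separated the months in secondary cells, more widely in females than in males. Its level was 2987, 3119 and 3233 in secondary June males, against 1815, 1948 and 1821 in primary June males, and 2826, 2782 and 2865 in secondary June females, against 2046, 1989 and 2195 in primary June females. All 6 secondary libraries were above all 6 primary ones, by 0.74 (SE 0.0533, adjusted p = 4.45e-11) in males and 0.44 (SE 0.0533, adjusted p = 3.52e-07) in females. In October secondary females had 1501, 1691 and 1683, so that ENO1 fell by 0.80 on the log2 scale relative to June (SE 0.0533, adjusted p = 2.2e-11). The secondary male difference was -0.16, a call lost without secondary June male 3 or secondary October male 2, and the sexes stood 0.64 apart. Between types in October and between months in primary cells, ENO1 was called in opposite directions in the sexes.

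ENO2, the enolase best known from neurons, took another course. In secondary males it was 13.7, 11.4 and 12.7 in October, against 27.6, 32.9 and 31.4 in June (-1.22 (SE 0.095, adjusted p = 2.18e-10)). Secondary females had 17.1, 21.9 and 22.5 in October and 19.8, 20.2 and 20.7 in June, which overlapped, with a difference of 0.01 (95% interval -0.19 to 0.21). In June males it was higher in secondary than in primary cells, with 30.6 ± 2.74 against 16.2 ± 1.6 (0.88 (SE 0.095, adjusted p = 4.54e-08)). In primary males the October difference was -0.24 (SE 0.095, adjusted p = 0.0354), which was lost without primary June male 2 or 3 or primary October male 1 or 3 (adjusted p 0.065 to 0.157), and in primary females -0.24 (SE 0.095, adjusted p = 0.0399), lost without primary June female 2 or 3 or primary October female 2 (adjusted p 0.0546 to 0.179). The male call was also lost with no filter (adjusted p = 0.0545) and on rescaled libraries (adjusted p = 0.147), and the female call with no filter (adjusted p = 0.062) and on rescaled libraries (adjusted p = 0.0507).

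GAPDH, often taken as a reference gene, was called in 5 of the 8 comparisons. In males the month differences were 0.01 in secondary cells, not called (adjusted p = 0.91) and of the other sign (-0.08) on rescaled libraries, and -0.15 (SE 0.0546, adjusted p = 0.0246) in primary cells. The primary male call was lost without primary June male 3 or primary October male 1 or 2 (adjusted p 0.0615 to 0.0701). In secondary females its level was 2329, 2474 and 2530.0 in October, against 3529, 3565 and 3484 in June, without overlap (-0.53 (SE 0.0546, adjusted p = 3.35e-08)). Primary females had 2867, 2397 and 2863 in October, against 3422, 3327 and 3411 in June (-0.33 (SE 0.0546, adjusted p = 3.35e-05)).

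Between follicle types in October, GAPDH differed by 0.18 (SE 0.0546, adjusted p = 0.0214) in males and -0.14 (SE 0.0546, adjusted p = 0.044) in females. The male call was lost without secondary October male 1 or primary October male 1 or 2 (adjusted p 0.0647 to 0.122) and on rescaled libraries (adjusted p = 0.149). The female call was lost without secondary June female 1 or 2, primary June female 1, primary June male 1, 2 or 3, secondary October female 1 or 2, primary October female 1 or 3 or primary October male 1, 2 or 3 (adjusted p 0.0505 to 0.206) and with no filter (adjusted p = 0.0604). In June it differed by 0.03 in males (adjusted p = 0.714) and 0.06 in females (adjusted p = 0.398), neither of them called. PGK1 and PKM, which each yield ATP, PGAM1 and the isomerase TPI1 had differences between 0.68, that of PKM between secondary and primary June males, and -0.53, that of PGAM1 between October and June in secondary females; TPI1 was called in 2 comparisons and the others in 6 each.

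**Figure D3:**
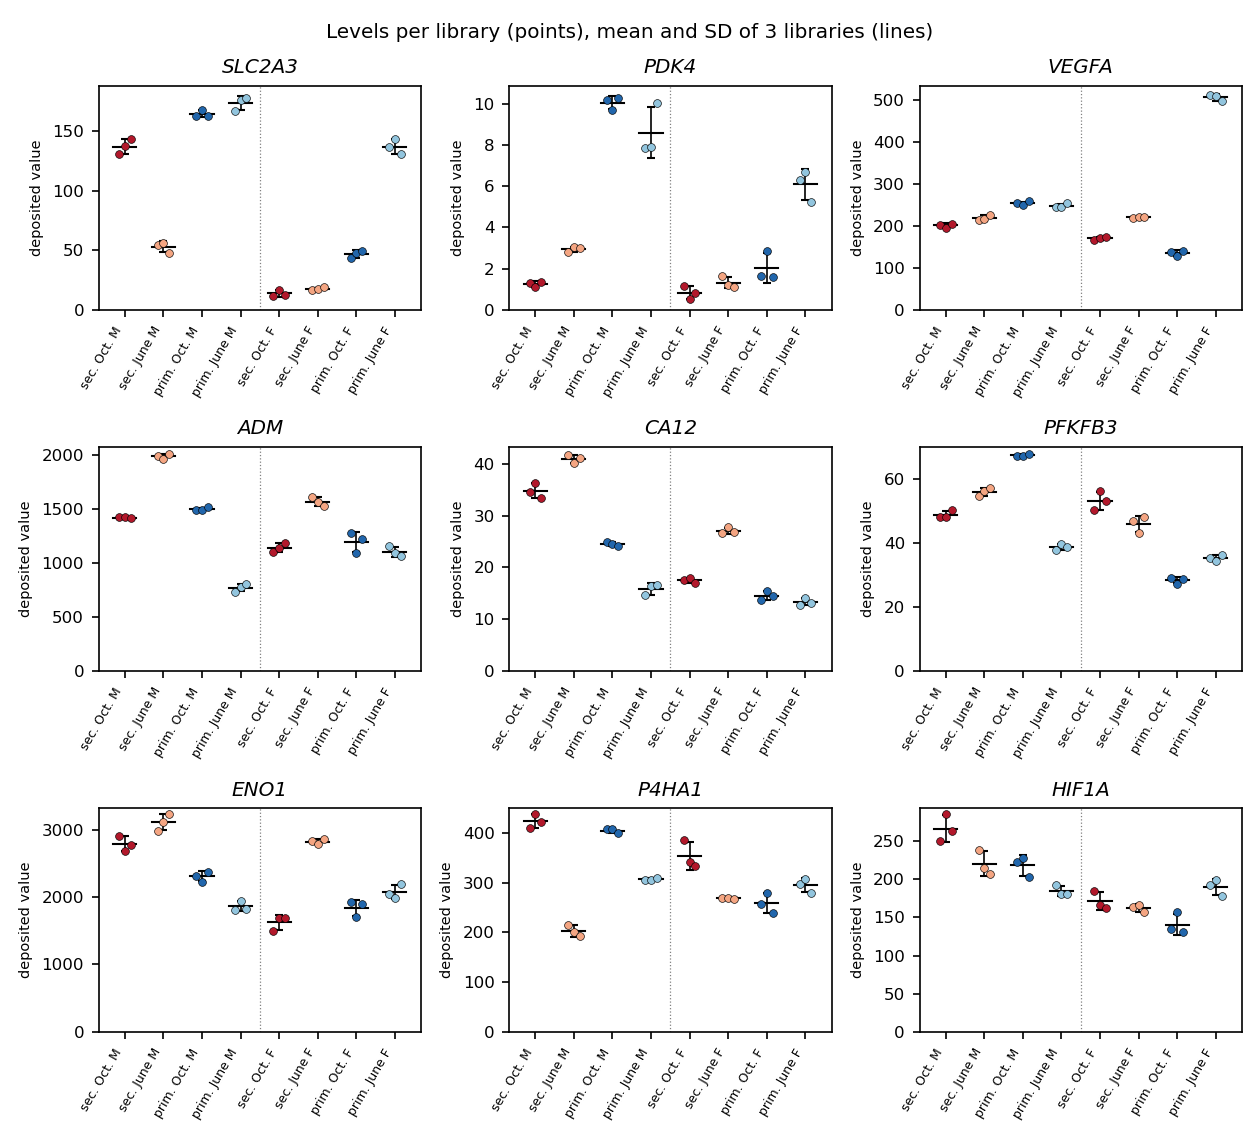
Levels (deposited normalised values, linear axis) of 9 genes in the 24 libraries: points are libraries and bars the mean and SD of the 3 libraries of a group, with males left of females. SLC2A3 is lowest in both groups of secondary females (means 13.7 and 17.6), and VEGFA stands highest in primary June females (mean 507, against 136 to 254 in the other 7 groups).

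Among the genes of the pyruvate branch, PDK4 (gene ID 102190015) separated the follicle types most widely. It encodes a kinase that blocks pyruvate dehydrogenase and is known to rise when cells turn to fatty acids. In October males its level was 1.28, 1.1 and 1.37 in secondary cells, against 10.2, 9.72 and 10.3 in primary cells (-2.30 (SE 0.137, adjusted p = 3.09e-11)). In June males it was 2.81, 3.03 and 3 in secondary cells, against 7.85, 7.92 and 10.0 in primary cells (-1.28 (SE 0.137, adjusted p = 4.04e-08)). The ranges lay far apart in both months.

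Females showed the same order of PDK4 RNA at lower levels. In October it was 1.17, 0.53 and 0.81 in secondary cells, against 1.63, 2.87 and 1.61 in primary cells (-0.71 (SE 0.137, adjusted p = 0.000244)), and in June 1.62, 1.21 and 1.1 in secondary cells, against 6.33, 6.7 and 5.25 in primary cells (-1.62 (SE 0.137, adjusted p = 1.35e-09)). PDK4, SLC2A3 and DDIT4 were the genes called lower in secondary cells in all 4 comparisons of follicle type, and CA12 the 1 gene called higher in all 4. Between months PDK4 was lower in October in secondary males (-0.81 (SE 0.137, adjusted p = 2.7e-05)) and primary females (-1.24 (SE 0.137, adjusted p = 1.14e-07)), and it was not called in primary males (0.21, adjusted p = 0.195). The October difference in secondary females (-0.34 (SE 0.137, adjusted p = 0.0439)) was lost without secondary June female 1 or 2, secondary June male 2, secondary October female 2 or 3 or primary October male 1 or 3 (adjusted p 0.0505 to 0.234). It was also lost with no filter (adjusted p = 0.0647), on rescaled libraries (adjusted p = 0.0564) and with the replicate number as a block (adjusted p = 0.0518).

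Next to PDK4, the rest of the pyruvate branch changed modestly. PDK1, the family member known as a target of hypoxia-inducible factor, was higher in October than in June in secondary males, with 23.9 ± 1.26 against 13.7 ± 1.66 (0.77 (SE 0.0705, adjusted p = 3.41e-09)). PDK4 made up 4.98% of the summed PDK1 and PDK4 level in secondary October males and 30.1% in primary October males. LDHA, the subunit of lactate dehydrogenase that favours lactate, was lower in October in all 4 comparisons of month, between -0.12 in primary males and -0.44 in secondary females, and the primary male call was lost without primary June male 3 (adjusted p = 0.0557) as well as on rescaled libraries. LDHB, the subunit common in oxidative tissue, was called in 4 comparisons and its share of the summed LDHA and LDHB level ran from 22.5% in secondary June males to 31.2% in primary October females.

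**Figure D4:**
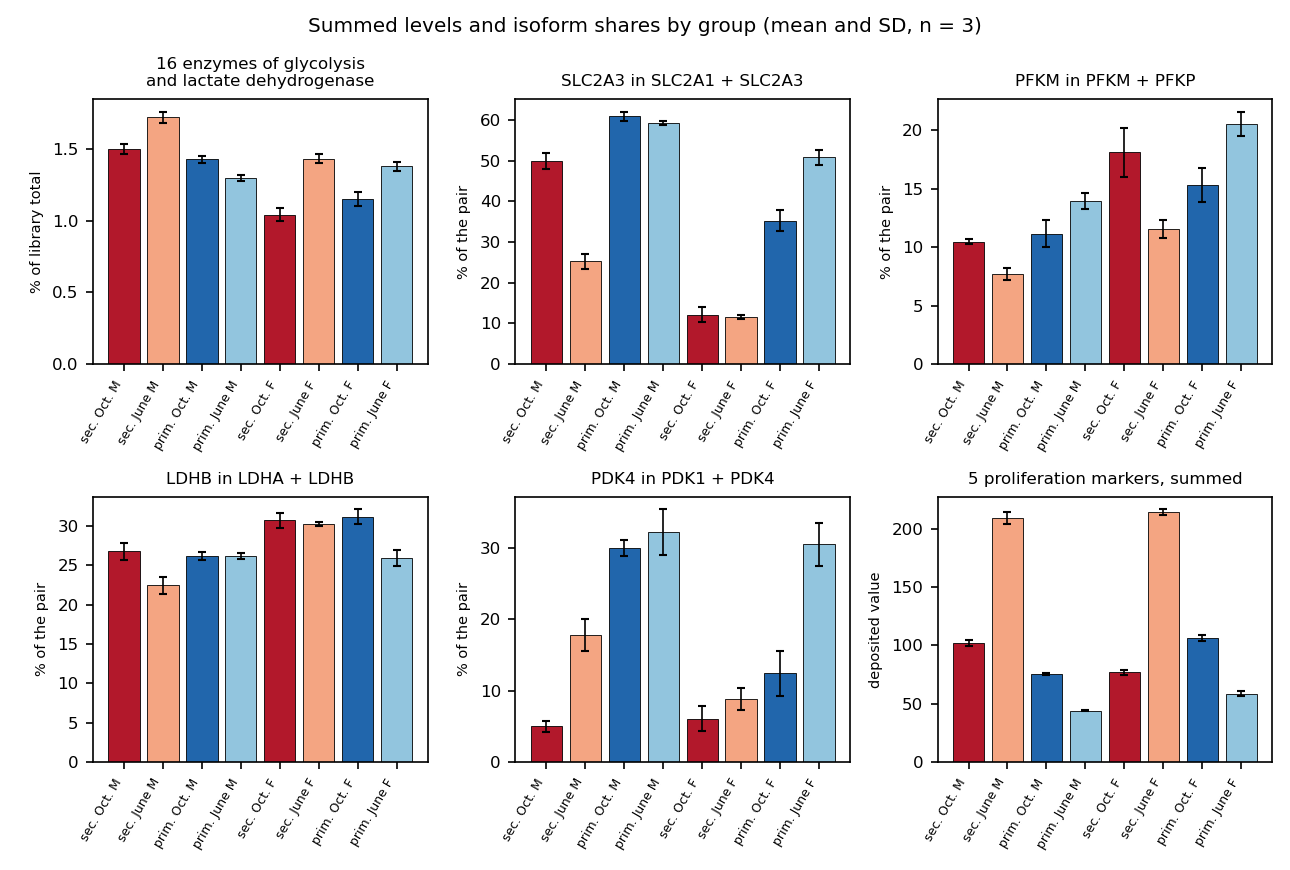
Bars are the mean and SD of 3 libraries per group (males left of females) for the 16 enzymes as a percent of the library total, the percent of SLC2A3, PFKM, LDHB and PDK4 within their pairs, and the summed level of 5 proliferation markers. SLC2A3 makes up 25.2 to 49.97% of its pair in secondary males and 59.2 to 60.8% in primary males, and 11.6 to 12.2% in secondary females and 35.3 to 50.8% in primary females.

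Among the genes that control the hypoxia response, HIF1A (gene ID 100861391) encodes the oxygen-regulated alpha subunit, which is controlled mostly as protein. Its RNA was 250.0, 285 and 263 in secondary October males, against 222, 228 and 203 in primary October males (0.29 (SE 0.07, adjusted p = 0.00519)). That male call was lost on libraries rescaled to a common total. October females had 184, 166 and 163 in secondary cells, against 134, 157 and 131 in primary cells (0.29 (SE 0.07, adjusted p = 0.00249)). In June it was higher in secondary than in primary males, at 220.1 ± 16.4 against 185 ± 6.41 (0.25 (SE 0.07, adjusted p = 0.00384)), and lower in secondary than in primary females, at 162 ± 4.77 against 190.2 ± 10.6 (-0.23 (SE 0.07, adjusted p = 0.00951)).

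Between months, HIF1A RNA rose in males of both follicle types, by 0.27 (SE 0.07, adjusted p = 0.00206) in secondary and 0.24 (SE 0.07, adjusted p = 0.00634) in primary cells. It fell in primary females (-0.44 (SE 0.07, adjusted p = 1.94e-05)), where the October libraries had 134, 157 and 131, below the 193, 199 and 179 of June. In secondary females the difference was 0.08 (adjusted p = 0.376). The male and female month differences in primary cells stood 0.68 apart (SE 0.0989, adjusted p = 9.17e-06).

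EGLN3, a HIF prolyl hydroxylase that is itself a target of the factor, was lower in October than in June in all 4 month comparisons. In secondary males it was 5.2, 4.27 and 5.27 in October, against 10.5, 11.4 and 11.7 in June (-1.05 (SE 0.0771, adjusted p = 7.61e-11)). In primary males it was 6.57, 5.4 and 5.8 in October, against 10.8, 11.6 and 10.9 in June (-0.81 (SE 0.0771, adjusted p = 7.52e-09)). Neither pair of groups overlapped. The females differed by -0.35 in secondary and -0.51 in primary cells.

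In October males EGLN3 differed between secondary and primary cells by -0.23, a call lost without secondary June male 2, secondary October male 2 or primary October male 1 or 3 (adjusted p 0.0508 to 0.231) and with no filter (adjusted p = 0.0508). It was lower in secondary than in primary cells in October females (-0.70 (SE 0.0771, adjusted p = 1.44e-07)) and June females (-0.85 (SE 0.0771, adjusted p = 3.92e-09)). EGLN1, the main oxygen sensor of most cells, kept to group means between 36.1 and 54.2 and was called lower in 6 comparisons and higher in 0.

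The hypoxia targets that act outside the cell gave the largest differences of their class. VEGFA (gene ID 100860957), the growth factor for blood vessels, was 254, 251 and 259 in primary October males, against 245, 245 and 254 in primary June males. Primary females had 138, 128 and 141 in October and 512, 511 and 498 in June. The primary June females were thus above every other group, and the month difference was 0.04 in males (95% interval -0.04 to 0.12) and -1.90 (SE 0.0378, adjusted p = 2.4e-20) in females, with the sexes 1.93 apart (SE 0.0535, adjusted p = 1.02e-17).

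In October, VEGFA was lower in secondary than in primary males, 201 ± 4.86 against 254 ± 3.9 (-0.34 (SE 0.0378, adjusted p = 6.72e-07)), and higher in secondary than in primary females, 170.3 ± 3.51 against 136 ± 6.96 (0.33 (SE 0.0378, adjusted p = 2.86e-07)). In June, secondary females had 219, 222 and 221, below all 3 primary June females (-1.20 (SE 0.0378, adjusted p = 4.46e-17)). The follicle type difference in October minus that in June was 1.52 (SE 0.0535, adjusted p = 5.51e-16) in females.

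ADM (gene ID 102178091) followed another course. In October the types did not differ by a call, with -0.08 in males (95% interval -0.17 to 0.02) and -0.07 in females (95% interval -0.16 to 0.03). Its June level was 1982, 1960.2 and 2006 in secondary June males, against 732, 771 and 801 in primary June males (1.37 (SE 0.047, adjusted p = 8.29e-17)). June females had 1603, 1564 and 1528 in secondary cells, against 1152, 1088 and 1065 in primary cells (0.51 (SE 0.047, adjusted p = 6.09e-09)). Every secondary June library was above every primary June library.

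The October levels of ADM in males were 1417 ± 5.01 in secondary and 1495 ± 14 in primary cells. Primary males rose relative to June (0.96 (SE 0.047, adjusted p = 6.32e-14)), and secondary males fell (-0.48 (SE 0.047, adjusted p = 8.4e-09)), as did secondary females (-0.46 (SE 0.047, adjusted p = 2.83e-08)). The change of the type difference between October and June was -1.45 (SE 0.0665, adjusted p = 6.37e-14) in males and -0.57 (SE 0.0665, adjusted p = 3.21e-07) in females.

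CA12 (gene ID 102171159), which helps export acid, stood higher in the secondary cells of October goats than in the primary ones, by 0.49 (SE 0.0536, adjusted p = 4.31e-07) in males and 0.25 (SE 0.0536, adjusted p = 0.000652) in females, without overlap in either sex. Its June level was 41.7, 40.1 and 41.2 in secondary June males, against 14.6, 16.3 and 16.5 in primary June males (1.32 (SE 0.0536, adjusted p = 1.44e-15)), and 26.6, 27.7 and 26.8 in secondary June females, against 12.8, 14.1 and 13.1 in primary June females (0.97 (SE 0.0536, adjusted p = 7.4e-13)). The October minus June change of the type difference was -0.83 in males (adjusted p = 5.99e-09) and -0.72 in females (adjusted p = 7.71e-08). October secondary females had 17.5 ± 0.511, against 27 ± 0.599 in June (-0.60 (SE 0.0536, adjusted p = 3.09e-09)). CA9, the carbonic anhydrase used as a hypoxia marker in tumours, was near the limit of the filter in all groups (group means 1.07 to 2.60). It was lower in October in primary males, with 1.3, 1.91 and 1.39 against 3.06, 2.61 and 2.13 in June (-0.51 (SE 0.118, adjusted p = 0.000955)). Secondary males likewise had 1.43, 1.59 and 1.45 in October, against 2.16, 2.45 and 2.77 in June, without overlap.

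The targets that act inside the cell included DDIT4, which was lower in secondary than in primary cells in every comparison of type. In October males it was 178, 185 and 196 in secondary cells, against 289, 288 and 295 in primary cells (-0.64 (SE 0.0581, adjusted p = 2.76e-08)), and in June males 137, 148 and 150.1 in secondary cells, against 257, 274 and 259 in primary cells (-0.86 (SE 0.0581, adjusted p = 1.56e-11)). Neither pair overlapped. The female differences were -0.31 in October and -0.97 in June. NDRG1, a stress response gene, had a month difference of 0.18 in primary males. In primary females it was 83.2 ± 1.15 in October, against 161 ± 4.29 in June (-0.94 (SE 0.0377, adjusted p = 2.85e-15)), and the male value was 1.12 above the female one (adjusted p = 9.83e-14).

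MXI1 was weakly expressed but was higher in October in 3 of the 4 month comparisons. In secondary males it was 8.76, 10.9 and 8.82 in October, against 4.89, 4.42 and 3.96 in June (0.95 (SE 0.0884, adjusted p = 4.33e-09)), and in secondary females 8.22, 8.18 and 8.2 in October, against 3.1, 4.04 and 3.91 in June (0.98 (SE 0.0884, adjusted p = 3.77e-09)). In primary males it was 8.05, 7.97 and 8.63 in October, against 4.46, 4.37 and 4.15 in June (0.79 (SE 0.0884, adjusted p = 9.34e-08)). October was above June in every one of these libraries. In primary females it was lower in October (-0.32 (SE 0.0884, adjusted p = 0.00492)), which left secondary above primary cells in October females (0.92 (SE 0.0884, adjusted p = 1.44e-08)).

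P4HA1 rose to 411, 438 and 422 in secondary October males, against 215, 200.1 and 193 in June (1.06 (SE 0.0556, adjusted p = 1.94e-13)), and to 387, 342 and 334 in secondary October females, against 270.1, 269 and 267 in June (0.40 (SE 0.0556, adjusted p = 3.22e-06)). No June library reached an October one in either sex. October females had more of it in secondary than in primary cells (0.45 (SE 0.0556, adjusted p = 6.75e-07)). BNIP3L rose in the same month contrast, by 0.52 in secondary males and to 90.5 ± 3.36 in secondary October females, against 63.4 ± 3.11 in June (0.51 (SE 0.0483, adjusted p = 9.01e-09)). Its relative BNIP3, also a mitophagy receptor, ran from 148 ± 17 in primary October females to 340.2 ± 1.81 in secondary October males. KDM3A, a histone demethylase, was the steadiest of the 37 genes, with a ratio of 1.32 between its highest and lowest group means, beside 1.33 for LDHB.

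Whether a difference was unlike in male and female libraries, or in the 2 months, was tested directly. The male minus female value of the type difference in October was called for 21 of the 37 genes, 13 positive and 8 negative. Over all tested genes it was called for 26.7%, 13.7% positive and 13.0% negative. In June it was called for 28 of the 37, 25 positive and 3 negative, beside 41.2% of all tested genes, 20.9% positive and 20.4% negative. For October against June in secondary cells it was called for 25 of the 37, 18 positive and 7 negative, beside 37.7% of all tested genes, 17.3% positive and 20.4% negative. For the same months in primary cells it was called for 29 of the 37, 27 positive and 2 negative, beside 36.8% of all tested genes, 17.7% positive and 19.1% negative. In males the type difference changed with month for 25 of the 37, 8 positive and 17 negative, beside 43.9% of all tested genes, 21.6% positive and 22.3% negative. In females it changed for 23 of the 37, 14 positive and 9 negative, beside 40.2% of all tested genes, 20.7% positive and 19.5% negative. These contrasts reuse the libraries of the comparisons above. The labels do not say that the 3 libraries of a group came from separate animals or cultures. A sex difference therefore cannot be told apart from a difference between single donors or cultures.

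Rescaling to a common total moved the split, here the positive share of all called genes, by more than 10 percentage points in 5 of these 6 contrasts. For the sex difference of the type contrast it gave 33.9% positive in October, against 51.3% as deposited (9 positive and 10 negative of the 37 genes), and 67.5% in June, against 50.6% (29 and 2). For the sex difference of the month contrast it gave 28.3% in secondary cells, against 45.8% (12 and 9), and 60.7% in primary cells, against 48.2% (30 and 1). For the change of the male type difference with month it gave 24.0%, against 49.2% (3 and 23). It moved the median of all genes to -0.17 in that contrast, against -0.01 as deposited, and to -0.12 in the sex difference of the month contrast in secondary cells, against -0.02. With median-of-ratios factors these 5 contrasts had, in the same order, 53.6, 48.7, 50.5, 48.8 and 51.9% positive. The 37 genes then had 14 positive and 8 negative, 25 and 3, 19 and 4, 27 and 2, and 8 and 17.

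Other genes of the same pathways were counted from lists of related genes. Of 37 tested HIF subunits, regulators and further hypoxia targets, 11 were called higher and 12 lower in October in primary males (median -0.03), and 1 higher and 24 lower in primary females (median -0.32). In secondary cells 16 were higher and 12 lower in October males (median 0.12), and 16 higher and 8 lower in October females (median 0.11). Between secondary and primary cells in October, 7 were higher and 7 lower in males (median 0.01) and 15 higher and 3 lower in females (median 0.09). In June 9 were higher and 18 lower in males (median -0.17) and 6 higher and 20 lower in females (median -0.18). The medians of all tested genes lay between -0.01 and 0.01. The share of the list called was 62.2 and 67.6% in primary males and females and 75.7 and 64.9% in secondary males and females, beside 55.5, 48.2, 56.5 and 51.3% of all tested genes. Between types it was 37.8 and 48.6% in October males and females and 73.0 and 70.3% in June males and females, beside 18.5, 35.5, 59.6 and 49.3%. VLDLR, a lipoprotein receptor that responds to hypoxia, fell to 14.5 ± 0.323 in primary October males, against 39.9 ± 2.06 in June (-1.40 (SE 0.0518, adjusted p = 4.92e-16)), and to 10.3 ± 0.356 in primary October females, against 46 ± 1.78 in June (-2.06 (SE 0.0518, adjusted p = 8.67e-19)). EPAS1, the alpha subunit of the second hypoxia-inducible factor, was 275 ± 0.48 in secondary June females, against 584 ± 31.5 in primary June females (-1.08 (SE 0.0481, adjusted p = 1.66e-14)).

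Of 34 further tested genes of glycolysis, lactate and pyruvate handling and the pentose phosphate path, 5 were called higher and 12 lower in October in secondary males, 6 higher and 14 lower in secondary females, 5 higher and 14 lower in primary males and 5 higher and 15 lower in primary females (medians -0.10, -0.10, -0.09 and -0.09). Between follicle types the counts were 6 higher and 2 lower in October males, 8 higher and 13 lower in October females, 15 higher and 6 lower in June males and 9 higher and 7 lower in June females (medians 0.03, -0.04, 0.08 and 0.00). Between months, the share called was below that of all tested genes in secondary males (17 of 34, beside 56.5%) and near it in primary males (55.9% beside 55.5%). In secondary and primary females it was 58.8% in each, beside 51.3 and 48.2%. Between types it was 23.5% in October males, 61.8% in October females, 61.8% in June males and 47.1% in June females, beside 18.5, 35.5, 59.6 and 49.3% of all tested genes. The lactate and pyruvate carrier SLC16A1 was 49.7 ± 3.66 in primary October females, against 91.5 ± 9.8 in June (-0.86 (SE 0.0689, adjusted p = 6.08e-10)). GPD2, the mitochondrial enzyme of the glycerol phosphate shuttle, was 10.3 ± 0.284 in secondary June females, against 20.4 ± 1.11 in primary June females (-0.93 (SE 0.0634, adjusted p = 3.16e-11)). PDK3, a further kinase of pyruvate dehydrogenase, was 17.7 ± 0.995 in secondary June males, against 29.8 ± 2.49 in primary June males (-0.72 (SE 0.0661, adjusted p = 3.24e-09)).

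Of 15 tested regulators that respond to nutrients or hormones, 2 were called higher and 7 lower in October in primary males (median -0.11), and 0 higher and 13 lower in primary females (median -0.37). In secondary cells 4 were higher and 7 lower in October males (median -0.11), and 4 higher and 6 lower in October females (median -0.17). Between follicle types the counts were 0 higher and 2 lower in October males, 3 higher and 3 lower in October females, 1 higher and 8 lower in June males and 2 higher and 8 lower in June females (medians -0.03, 0.05, -0.20 and -0.22). The numbers called were 9 and 13 of 15 in primary males and females and 11 and 10 in secondary males and females, beside 55.5, 48.2, 56.5 and 51.3% of all tested genes. Between types they were 2 and 6 of 15 in October males and females and 9 and 10 in June males and females, beside 18.5, 35.5, 59.6 and 49.3%. ARRDC4 and TXNIP, arrestins induced by glucose that restrain its uptake, were lower in secondary than in primary June males (-1.15 and -0.72, adjusted p = 4.75e-13 and 3.02e-11). ARRDC4 was higher in October than in June in secondary males (1.26 (SE 0.064, adjusted p = 1.04e-13)). MYC, a transcription factor that raises many glycolytic genes, was 29.6 ± 0.941 in primary October females, against 49.1 ± 0.656 in June (-0.71 (SE 0.0553, adjusted p = 4e-10)).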

How the data were processed

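RNA-seq of 24 libraries was analysed. The authors deposited a normalised signal for each gene and library, not counts. Library totals lie near 1e+06, which would fit TPM values with a scaling factor for each library, but the scaling is not stated. Per the submitters' processing notes, kallisto 0.46.1 and sleuth 0.30.0 were used; their roles and order are not stated. The build, the transcript set and the filters were not given in the sources used here, and the depth is unknown. Therefore no counting interval is given, and precision rests on 3 libraries per group. Of the 37 gene IDs, 37 matched the ARS1.2 reference table, which served for names only. Values of genes with close paralogs (aldolases, enolases, PGK1, PGAM1, GAPDH) can shift with the way reads common to several genes were assigned.

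Genes at 1 or more in at least 3 libraries (13049) were set to log2(value + 1) and analysed with limma 3.58.1 under R 4.3.3 (with statmod 1.5.0). The model had 8 group means, trended and robust variances, and a spread common to all 24 libraries. Had the files held counts, a count test would have been used. There were 8 comparisons within sex and 6 differences between them. P-values were adjusted by Benjamini-Hochberg over all genes of a comparison, and a gene was called under 0.05. This fit had been tested on simulated data with independent noise and changes in a small part of the genes. That test does not address library scaling or technical replicates. Full statistics follow a rule: the 3 largest called rises and falls per comparison and HIF1A, GAPDH and PDK4. Other members named were chosen after their values were seen. Of the related lists, genes among the 4 called with the smallest p of a comparison are named. Members, lists and this rule were chosen with earlier results of these data known.

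The alternative settings were a pseudocount of 0.1, no filter, a stricter filter (1 or more in 6 libraries), each library rescaled to a common total, median-of-ratios factors, a spread not estimated robustly, the replicate number as a block, and each of the 24 libraries left out, 31 in all, and also a fold of at least 1.5 and the compared groups alone. No pairing of libraries by replicate number was evident, and the labels state none, so the libraries were treated as unpaired. PFKL and P4HA2 were not analysed here.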

Additional observations from a re-analysis of the deposited data

Results flagged for a closer look

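Each value below is a difference of log2 differences that passed limma's interaction test at an adjusted p under 0.05, among the genes given full statistics. As stated above, a male minus female value cannot be told apart from a difference between single donors or cultures.

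The difference of secondary against primary cells in October was unlike in the sexes for 21 of the 37 genes. The male minus female value was 1.45 for SLC2A3, 0.47 for EGLN3, 0.33 for GAPDH and 0.24 for CA12. It was -1.59 for PDK4 (-2.30 in males and -0.71 in females), -1.34 for PFKFB3, -0.74 for MXI1, -0.39 for P4HA1 and -0.33 for DDIT4 (adjusted p 2.66e-13 to 0.0231 over these 9). The call of CA12 was lost without secondary October female 3, secondary October male 2, primary October female 2 or primary October male 3 (adjusted p 0.0506 to 0.065), and on rescaled libraries (0.154, adjusted p = 0.181).

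In June that contrast was unlike in the sexes for 28 genes. The male minus female value was 1.19 for SLC2A3 (-1.70 in males and -2.89 in females), 1.17 for ENO2 (0.88 and -0.29) and 1.02 for VEGFA (-0.18 and -1.20). It was 0.86 for ADM, 0.48 for HIF1A, 0.41 for PFKP and 0.35 for CA12 (adjusted p 4.89e-13 to 0.00692 over these 7).

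October against June in secondary cells was unlike in the sexes for 25 genes. The male minus female value was 1.71 for SLC2A3 (1.36 in males and -0.35 in females), 0.66 for P4HA1, 0.64 for ENO1, 0.54 for GAPDH and 0.37 for CA12. It was -1.22 for ENO2 and -0.70 for EGLN3 (adjusted p 2.78e-10 to 0.00045 over these 7).

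In primary cells it was unlike in the sexes for 29 genes. The male minus female value was 1.93 for VEGFA, 1.46 for PDK4, 1.45 for SLC2A3, 1.11 for MXI1 and 1.09 for PFKFB3. It was 0.85 for ADM, 0.68 for HIF1A, -0.30 for EGLN3 and -0.49 for CA9 (adjusted p 1.02e-17 to 0.0353 over these 9). The call of EGLN3 was lost without primary June female 1, 2 or 3, primary June male 2, primary October female 1 or 2 or primary October male 2 or 3 (adjusted p 0.0541 to 0.102) and on rescaled libraries (-0.238, adjusted p = 0.0922), and that of CA9 without primary June female 2, primary June male 1, primary October female 3 or primary October male 1 or 3 (adjusted p 0.0595 to 0.0792).

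The difference between follicle types was unlike in October and June for 25 genes in males and 23 in females. In males the October minus June value was 1.44 for SLC2A3, -1.45 for ADM, -1.03 for PDK4, -0.98 for PFKFB3, -0.97 for ENO2, -0.83 for CA12 and 0.22 for DDIT4 (adjusted p 6.37e-14 to 0.0343). In females it was 1.52 for VEGFA, 1.30 for MXI1, 1.18 for SLC2A3, 0.90 for PDK4, 0.59 for P4HA1, 0.51 for HIF1A and 0.51 for PFKFB3. It was -0.76 for PFKP, -0.72 for CA12, -0.57 for ADM and -0.20 for GAPDH (adjusted p 5.51e-16 to 0.0414 over these 11). The call of DDIT4 in males was lost without secondary June male 1, primary June male 2, secondary October male 2 or 3 or primary October male 1 or 2 (adjusted p 0.0518 to 0.0957), and on rescaled libraries (0.0435, adjusted p = 0.682). That of GAPDH in females was lost without secondary June female 1, 2 or 3, primary June female 1, 2 or 3, secondary October female 1 or 2 or primary October female 1 or 3 (adjusted p 0.0525 to 0.121) and with no filter (adjusted p = 0.0569).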

How the results depend on the processing

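Over the 31 settings, between 181 (libraries rescaled to a common total) and 200 of the 200 calls of the 8 comparisons remained. No called value turned its sign. Rescaling lost 19 of these calls and gained 17 others. With a fold of at least 1.5 required as well, the number of the 37 genes called between follicle types was 2 in October males, 5 in October females, 12 in June males and 7 in June females, beside 2.61, 7.69, 17.5 and 11.0% of all tested genes. Between months it was 8 in secondary males, 4 in secondary females, 5 in primary males and 6 in primary females, beside 15.9, 11.1, 13.6 and 9.92%. It was 8 in males and 10 in females for the change of the type difference with month, beside 16.4 and 14.5%. For the male minus female values it was 5 and 9 (type, October and June), 9 and 14 (month, secondary and primary cells), beside 8.87, 14.3, 13.8 and 12.9%. With the compared groups alone, 14 genes were called between types in October females, beside 21.4% of all tested genes.

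With 1 library left out, the counts ran from 13 to 19, 20 to 23, 27 to 28 and 26 to 27 between types (October males, October females, June males, June females). They ran from 25 to 28, 25 to 27, 21 to 28 and 22 to 26 between months (secondary males, secondary females, primary males, primary females). For the change of the type difference with month they ran from 22 to 27 in males and 20 to 25 in females, and for the male minus female values from 20 to 24, 27 to 30, 22 to 28 and 26 to 30, in the order above.

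The uncalled GAPDH difference between months in secondary males (0.01) became -0.0797 on rescaled libraries and ran from -0.0291 to 0.0572 with 1 library left out, and that between types in June males (0.03) from -0.0239 to 0.0527. The cause was not tested. With the replicate number as a block, 199 of the 200 calls were kept and 5 gained, and PDK4 between months in secondary females was lost (adjusted p = 0.0518). Same-numbered libraries did not deviate together in a regular way (correlations -0.28 to 0.29, every pair over 0.1 in 0 of 12 group pairs), and 11 of 24 libraries correlated best with their own number. These weak correlations cannot exclude that some same-numbered libraries came from the same goat. The depth behind weak genes such as CA9 and PDK4 is unknown, so their precision rests on 3 libraries.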
